A study of Bos taurus with 10 samples.

Results

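Tight junction genes were followed through the deposited muscle transcriptome table of a cattle myostatin study. The 9 genes were the claudins Cldn1, Cldn3, Cldn4, Cldn6 and Cldn7, the occludin gene Ocln, the zonula occludens scaffold genes Tjp1 and Tjp3, and F11r, which encodes the junctional adhesion molecule JAM-A. They were chosen by exact match of the symbol, and each matched 1 of the 21130 rows of the table. The study set 7 libraries labelled MSTN+/- (1 edited copy of the myostatin gene) against 3 libraries labelled wild type. All 10 were labelled as muscle of cattle aged 24 months, and nothing in the labels gives the number of animals, so p-values measure the spread between libraries, which may be technical in part. The 7 libraries and the 3 libraries are called by these labels throughout, with the limit that follows.

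Tight junctions seal neighbouring epithelial or endothelial cells to one another close to their apical edge. Claudins and occludin are membrane proteins that build the sealing strands, and the mix of claudins sets which ions and molecules pass between the cells. JAM proteins are immunoglobulin-like adhesion molecules beside the strands, and the zonula occludens scaffolds tie the strands to the actin cytoskeleton from inside. Skeletal muscle fibres are not known for tight junctions, and in muscle tissue such junctions belong mainly to blood vessel lining and nerve sheaths. Epithelial cells and pluripotent stem cells make several claudins, while fibroblasts make few.

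The table did not match its labels, and the results are differences between labelled columns that cannot be read as an effect of myostatin in cattle muscle. All 9 genes were described as mouse genes, with 13 transcript accessions of which 0 were cattle accessions in the RefSeq annotation of assembly ARS-UCD2.0. Of 12 skeletal muscle markers, 4 stayed below 1 FPKM (fragments per kilobase of transcript, scaled to the mapped total) in all 10 libraries. Together they reached 16.4 to 32.9 FPKM in MSTN+/-, against 27.5, 12.3 and 12.0 FPKM in wild-type replicates 1, 2 and 3. Mstn itself was listed at 0 in 7 of 10 libraries and reached at most 0.18 FPKM in a MSTN+/- library and 0.03 FPKM in a wild-type library, too little to check the genotype labels. The wild-type libraries were not alike. Across genes, which are not independent replicates, wild-type replicates 2 and 3 correlated at Pearson's r of 0.975, and wild-type replicate 1 correlated with them at 0.751 to 0.773. The 9 genes are therefore given for all 3 wild-type libraries, without replicate 1, and against replicate 1 alone. Other genes and lists are given in the restricted fits only in part. Total FPKM ran between 444318 and 464418 across MSTN+/- and between 402716 and 454617 across wild type. True depth is unknown, and depth relative to MSTN+/- replicate 1, estimated from single-fragment steps, ran up to 1.15 in the MSTN+/- libraries and was 1.2, 1.10 and 1.12 in wild-type replicates 1, 2 and 3.

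**Figure D1:**
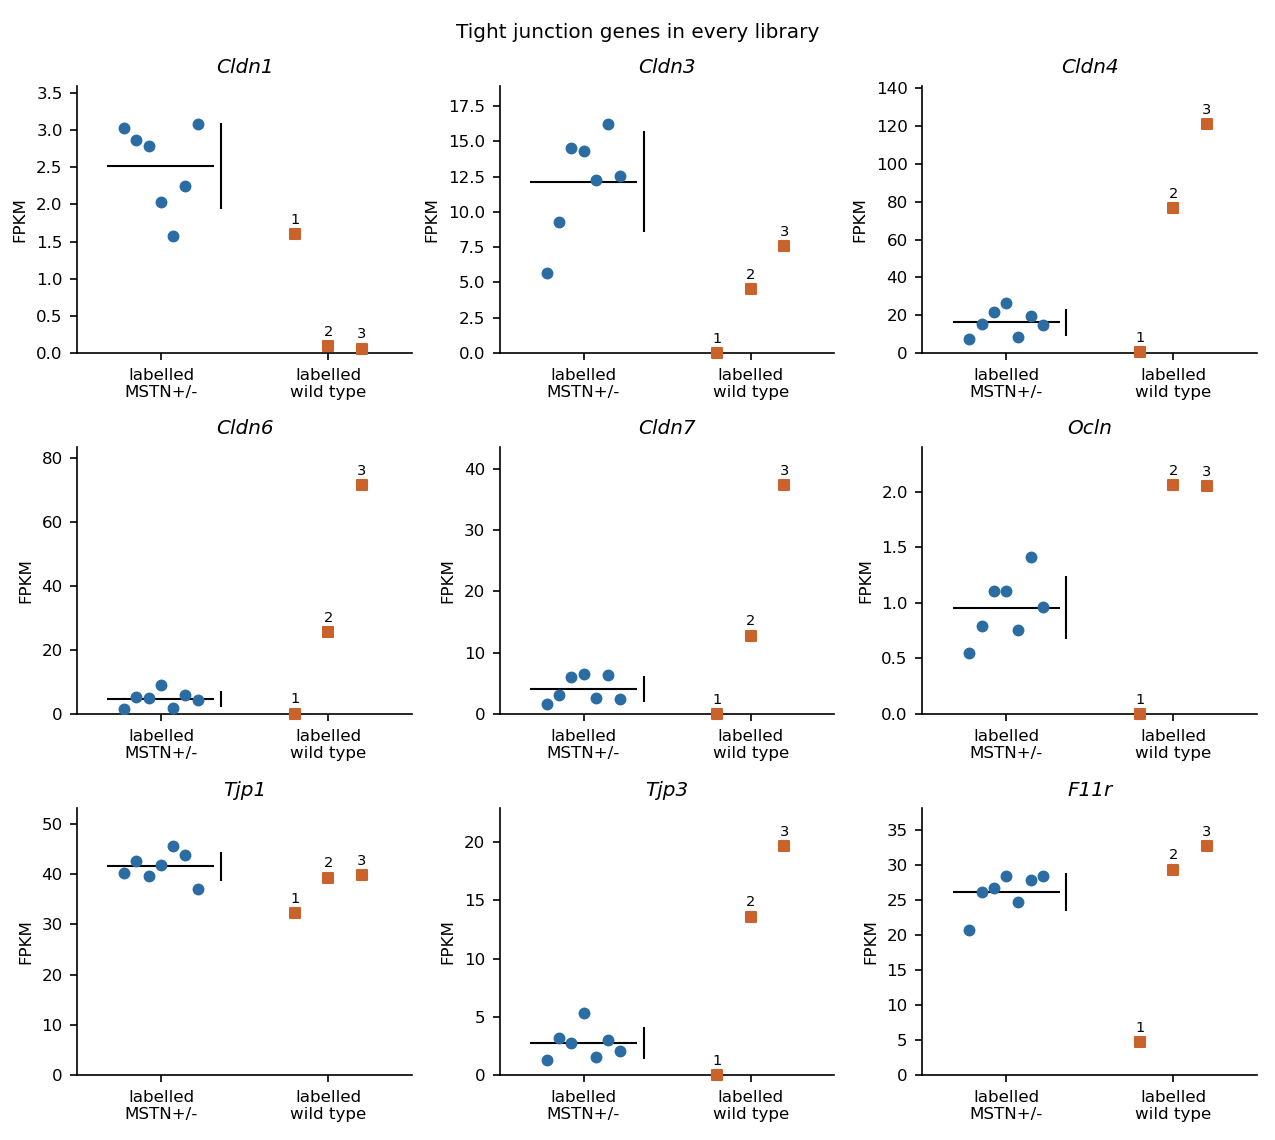
FPKM (vertical axes, linear from 0) of the 9 tight junction genes in each library, with the 7 MSTN+/- libraries as circles (horizontal line, mean; vertical line, SD) and the wild-type libraries as squares numbered by replicate. For Cldn4, Cldn6, Cldn7, Ocln, Tjp3 and F11r every MSTN+/- value lies above wild-type replicate 1 and below replicates 2 and 3.

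For the claudins Cldn4, Cldn6 and Cldn7 the difference between MSTN+/- and wild type ran in opposite directions depending on the wild-type library. Cldn4 (gene 12740), a barrier-forming claudin and a receptor of a Clostridium toxin, was at 7.16 FPKM at the lowest, 15.2 at the median and 26.4 at the highest in the MSTN+/- libraries, against 0.40, 76.6 and 121 FPKM in wild-type replicates 1, 2 and 3. All 7 MSTN+/- libraries therefore lay above wild-type replicate 1 and below the other two. The MSTN+/- median was 38.1 times the level of wild-type replicate 1, while wild-type replicates 2 and 3 were at 5.03 and 7.95 times the MSTN+/- median. Cldn6 (gene 54419), a claudin of the early embryo and of pluripotent cells, had 1.68, 5.07 and 9.08 FPKM as lowest, median and highest in the MSTN+/- libraries, against 0.06, 25.6 and 71.6 FPKM in wild-type replicates 1, 2 and 3. Wild-type replicate 3 was at 14.1 times the MSTN+/- median. Cldn7 (gene 53624), which binds the adhesion protein EpCAM, had 1.62, 3.12 and 6.56 FPKM in the MSTN+/- libraries in the same order, against a listing at 0 in wild-type replicate 1 and 12.8 and 37.3 FPKM in replicates 2 and 3. Wild-type replicates 2 and 3 also differed from one another. Replicate 3 was 1.58 times replicate 2 for Cldn4, 2.79 times for Cldn6 and 2.92 times for Cldn7.

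With all 3 wild-type libraries in the fit, none of these claudins passed the threshold. The log2 change on log2(FPKM + 1), MSTN+/- minus wild type, was -0.58 ± 1.14 for Cldn4, -1.27 ± 1.04 for Cldn6 and -0.77 ± 0.89 for Cldn7 (SE), with limma adjusted p of 0.697, 0.335 and 0.497. Without wild-type replicate 1 all 3 fell in the MSTN+/- libraries, by 2.62 for Cldn4, 3.06 for Cldn6 and 2.28 for Cldn7 on the log2 scale (limma adjusted p = 2.841e-04, 3.182e-04 and 0.0014). Set against that library alone all 3 rose, by 3.50, 2.31 and 2.25 (limma adjusted p = 0.00126, 0.0139 and 0.00987). That last fit assumes the lone wild-type library varies like the MSTN+/- libraries. Its changes also depend on the pseudocount where wild-type replicate 1 is at or near 0. In bulk RNA, fewer cells of a type and less RNA per cell cannot be told apart.

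Cldn3 and Cldn1 were the 2 genes that passed the threshold with all libraries, and both were higher in MSTN+/-. Cldn3 (gene 12739), another barrier-forming claudin and toxin receptor, was at 5.67, 12.6 and 16.2 FPKM as lowest, median and highest in the MSTN+/- libraries, against 0, 4.50 and 7.58 FPKM in wild-type replicates 1, 2 and 3. Only MSTN+/- replicate 1 lay below wild-type replicate 3, so the groups overlapped in that library. Mean levels were 12.1 ± 3.58 FPKM (SD, n = 7) in MSTN+/- and 4.03 ± 3.81 FPKM (SD, n = 3) in wild type, and the difference on the log2 scale was 1.80 ± 0.56 (SE, limma adjusted p = 0.0258, and 1.71e-04 to 0.332 over its alternatives). Unlike Cldn4, Cldn3 was higher in MSTN+/- in both restricted fits, by 0.88 without wild-type replicate 1 (limma adjusted p = 0.0302) and by 3.66 against replicate 1 alone (limma adjusted p = 1.713e-04). It was 2.43 without replicate 3. Its call was lost with library weights, where the log2 change was 0.73, and with a pseudocount of 0.1 (limma adjusted p = 0.332 and 0.0505).

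Cldn1 (gene 12737), a claudin of the skin barrier, showed a different order of libraries. It was at 1.57, 2.79 and 3.08 FPKM as lowest, median and highest in the MSTN+/- libraries, against 1.60, 0.09 and 0.06 FPKM in wild-type replicates 1, 2 and 3. That is, the wild-type library with the least Cldn4, Cldn6 and Cldn7 thus had the most Cldn1, and MSTN+/- replicate 5 fell just below it. The MSTN+/- median was 31.0 and 46.5 times the level of wild-type replicates 2 and 3. The means were 2.52 ± 0.57 FPKM (SD, n = 7) in MSTN+/- and 0.58 ± 0.88 FPKM (SD, n = 3) in wild type, for a log2 difference of 1.27 ± 0.28 (SE), at a limma adjusted p of 0.00494 (2.23e-05 to 0.217 over its alternatives). The change was 1.69 without wild-type replicate 1 (limma adjusted p = 2.234e-05) and 0.42 against replicate 1 alone (limma adjusted p = 0.217). The call was therefore lost against replicate 1 alone, but it held without replicate 2 or replicate 3 (limma adjusted p = 0.0301 and 0.0298). It was also lost with quantile normalization, where the log2 change was 0.65 (limma adjusted p = 0.0887).

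The other membrane proteins followed the order of Cldn4 at smaller ratios. Ocln (gene 18260), which stabilises the strands, was low everywhere, at 0.55, 0.96 and 1.41 FPKM as lowest, median and highest in MSTN+/-, against 0, 2.06 and 2.05 FPKM in wild-type replicates 1, 2 and 3. F11r (gene 16456) was at 20.7, 26.8 and 28.5 FPKM in MSTN+/- in that order, against 4.69, 29.3 and 32.7 FPKM in wild-type replicates 1, 2 and 3. For F11r the gap to replicate 1 was wide, with the lowest MSTN+/- value 4.41 times that library, and the gap to replicate 2 was narrow, at 1.03 times the highest MSTN+/- value. Neither gene passed with all libraries. The log2 changes were -0.12 ± 0.32 for Ocln and 0.59 ± 0.45 for F11r (SE, limma adjusted p = 0.781 and 0.305). Leaving out wild-type replicate 1, the changes were -0.66 and -0.24 (limma adjusted p = 0.00679 and 0.0859), and against replicate 1 alone they were 0.95 and 2.25 (limma adjusted p = 0.0196 and 9.083e-06).

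The scaffolds differed from one another. Tjp3 (gene 27375), the zonula occludens scaffold most restricted to epithelia, was at 1.29, 2.71 and 5.32 FPKM as lowest, median and highest in MSTN+/-, against 0, 13.6 and 19.7 FPKM in wild-type replicates 1, 2 and 3. Its log2 change was -0.92 ± 0.78 with all libraries (SE, limma adjusted p = 0.351), -2.29 without wild-type replicate 1 (limma adjusted p = 1.273e-04) and 1.83 against replicate 1 alone (limma adjusted p = 0.0105). Tjp1 (gene 21872), the scaffold ZO-1 that is also made by cells without tight junctions, was the most even of the 9. Its levels were 37.1, 41.9 and 45.6 FPKM in MSTN+/- in the same order, and 32.3, 39.3 and 39.8 FPKM in wild-type replicates 1, 2 and 3. On the log2 scale Tjp1 differed by 0.16 ± 0.10 with all libraries and by 0.07 ± 0.08 without wild-type replicate 1 (SE, limma adjusted p = 0.215 and 0.489). Against replicate 1 alone it was 0.35 ± 0.11 (SE, limma adjusted p = 0.0334), and with median-of-ratios scaling of all libraries its sign turned (-0.05).

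**Figure D2:**
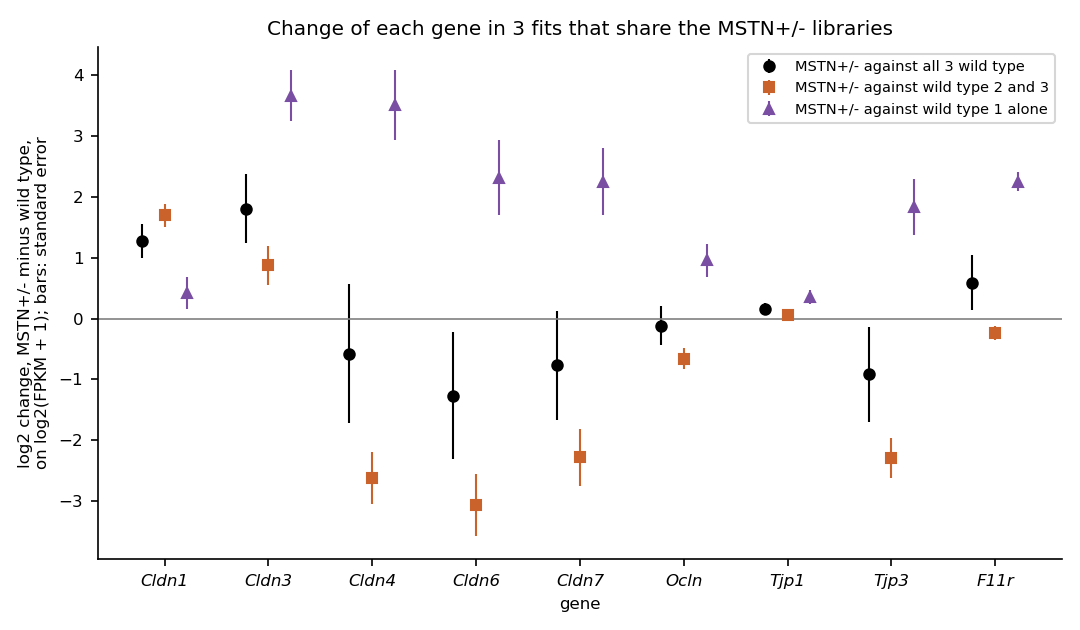
Log2 change (vertical axis, MSTN+/- minus wild type on log2(FPKM + 1); bars, standard error) of the 9 genes (horizontal axis) in 3 limma fits that share the MSTN+/- libraries. Cldn4 has -0.58 with all wild-type libraries, -2.62 without replicate 1 and 3.50 against replicate 1 alone, and Tjp1 stays between 0.07 and 0.35.

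Counted over the 9 genes, 2 were called higher with all wild-type libraries, where 31.8% of the 14047 genes tested were called higher, and 0 were called lower, where 12.8% of all genes were. At an unadjusted limma p under 0.05 the counts were also 2 and 0. The share called is below that of all genes, so it says nothing about these 9 in particular. Without wild-type replicate 1, 2 genes were higher and 5 lower, beside 42.2% and 31.9% of 13965 genes. Against replicate 1 alone 8 were higher and 0 lower (also 0 at an unadjusted p under 0.05), beside 33.7% and 10.8% of 13732 genes. The median log2 change of the 9 was -0.12, -0.66 and 2.25 in these fits, and that of all genes tested was 0.17, 0.15 and 0.26. Scaling set part of the split over all genes. Of all calls 71.3% were higher in the table as deposited, 63.8% with TPM rescaling, 50.3% with median-of-ratios scaling and 42.7% with quantile normalization, and the median change over all genes on the log2 scale was 0.17, 0.14, 0.00 and -0.10 in these settings. The 3 comparisons share the MSTN+/- libraries, so their values stand side by side and are not separate evidence. All MSTN+/- values lay between wild-type replicate 1 below and replicates 2 and 3 above for 6 of the 9 genes, an order found in 12.7% of genes tested. None of the 9 had every MSTN+/- value above all wild-type values, or every one below, orders found in 25.2% and 6.86% of genes tested. For 8 of the 9, all but Cldn1, wild-type replicate 1 had the lowest value of the 10 libraries, as it did for 31.3% of genes tested. The genes were chosen with earlier results of these data known, so these counts are descriptions.

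Within the MSTN+/- libraries the genes varied unequally and often in the same libraries. The coefficient of variation over the 7 libraries was 53.1% for Cldn6, 50.8% for Cldn7, 49.2% for Tjp3 and 42.9% for Cldn4, where the median of all genes tested was 13.2%. It was 29.7% for Ocln, 29.6% for Cldn3 and 22.8% for Cldn1. F11r, at 10.6%, and Tjp1, at 6.85%, varied less than the median gene. MSTN+/- replicate 1 had the lowest value of 7 genes, all but Cldn1 and Tjp1. MSTN+/- replicate 5 was among the lowest 2 libraries for 6 genes. MSTN+/- replicate 4 had the highest value of 5 genes, namely Cldn4, Cldn6, Cldn7, Tjp3 and F11r, and MSTN+/- replicate 6 that of Cldn3 and Ocln. Cldn1 was highest in replicates 7 and 1, at 3.08 and 3.03 FPKM, and Tjp1 in replicate 5, at 45.6 FPKM. From lowest to highest library the span was 5.40-fold for Cldn6 and 1.23-fold for Tjp1.

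FPKM is scaled by transcript length, so levels can be set against one another within a library. Tjp1 was the most abundant of the 9 in 7 of 7 MSTN+/- libraries, F11r was second in 7, Cldn4 the third in 6 and Ocln last in 7. Tjp1 was also first and F11r second in wild-type replicate 1, where 6 of the 9 genes were below 1 FPKM and 4 of these were listed at 0. In wild-type replicates 2 and 3 Cldn4 came first, ahead of Tjp1. Cldn6, at 71.6 FPKM, also passed Tjp1 in wild-type replicate 3. Few genes of high level were listed at 0 in these libraries. Of 4060 genes with a median of at least 20 FPKM, 15 were at 0 in wild-type replicate 1, and 3 and 4 in replicates 2 and 3. In each MSTN+/- library at most 1 was at 0. The 4 of the 9 genes at 0 in wild-type replicate 1 had MSTN+/- medians of 0.96 to 12.6 FPKM, so these counts do not cover them.

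The makeup of claudin transcripts changed along with their amount. Of the claudin genes listed by symbol, 21 had a row, while the deposited annotation places 26 rows in its claudin group. The pool and its shares cover only the 21. They summed to 42.3, 70.0 and 87.8 FPKM as lowest, median and highest in MSTN+/-, against 16.2, 130 and 250 FPKM in wild-type replicates 1, 2 and 3. In MSTN+/- libraries the pool was mixed. Cldn4 made up 14.8% to 30.0% of it, Cldn3 13.4% to 21.7%, Cldn12 13.5% to 26.5% and Cldn11 9.67% to 19.1%. In wild-type replicate 1, 81.4% of the pool was Cldn12, a claudin also found outside tight junctions, and 9.90% was Cldn1. In wild-type replicates 2 and 3 Cldn4 held 58.8% and 48.5%, Cldn6 19.6% and 28.7%, and Cldn7 9.80% and 14.9%, while Cldn12 held 6.24% and 3.70%. Cldn4 was the leading claudin in MSTN+/- replicates 2, 3, 4, 6 and 7, and Cldn12 in MSTN+/- replicates 1 and 5. Of the 21, 11 reached 1 FPKM in at least 1 library. How fragments shared by related claudins were assigned is not given in the sources used here.

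**Figure D3:**
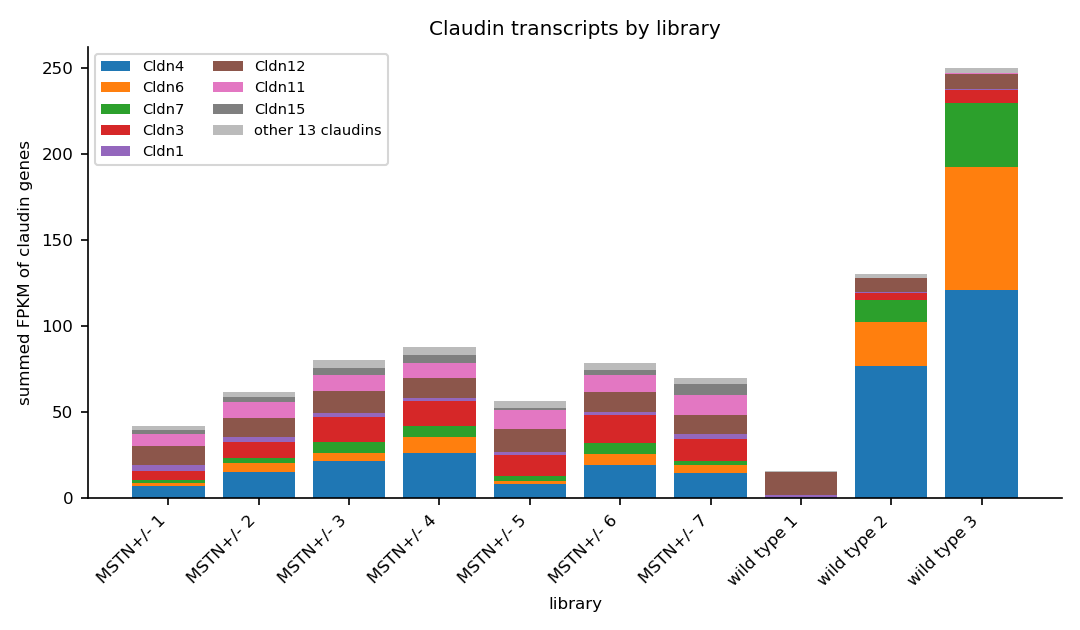
Summed FPKM of the 21 listed claudin genes with a row (vertical axis) in each library (horizontal axis), with the 8 most abundant shown by colour. Bars reach 42.3 to 87.8 FPKM in MSTN+/-, and 16.2, 130 and 250 FPKM in wild-type replicates 1, 2 and 3, where Cldn12 fills most of the first and Cldn4 the largest part of the others.

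Related genes outside the 9 divided the same families differently. Among the JAM genes, Jam2 and Jam3 did not share the order of F11r. F11r held 31.2% to 35.4% of the summed level of the 3 genes in MSTN+/-, 19.4% in wild-type replicate 1, and 62.3% and 66.8% in replicates 2 and 3. Jam3 held 22.7% to 33.2% in MSTN+/-, against 76.6% in wild-type replicate 1 and 8.61% in replicate 3. The tricellulin gene Marveld2, which acts where 3 cells meet, was at 0.64 to 1.17 FPKM in MSTN+/-, against 0, 2.54 and 2.75 FPKM in wild-type replicates 1, 2 and 3, close to Ocln in each library.

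Of 50 further junction genes, 47 had a row and 34 passed the low-value filter. With all libraries 10 were higher and 3 lower in MSTN+/-, or 13 higher and 11 lower without wild-type replicate 1 and 13 higher and 5 lower against replicate 1 alone, and their median log2 change was 0.09 with all libraries. These counts stand beside 31.8% of all genes called higher and 12.8% lower with all libraries, 42.2% and 31.9% without wild-type replicate 1, and 33.7% and 10.8% against replicate 1 alone, as do the list counts that follow, and nothing particular to a list is read from them. Of the 5 other claudins tested, 3 were higher and 0 lower (also 0 at an unadjusted limma p under 0.05). Cldn11, the claudin of myelin and of Sertoli cells, had 9.55 ± 1.61 FPKM (SD, n = 7) in MSTN+/- and 0.19 ± 0.03 FPKM (SD, n = 3) in wild type, with no overlap and a log2 change of 3.13 (limma adjusted p = 2.237e-07). Cldn15, a sodium pore of the gut, had 3.43 ± 1.57 FPKM in MSTN+/- and 0.10 ± 0.05 FPKM in wild type, for a log2 difference of 1.93 (limma adjusted p = 7.024e-04). Cldn5, the claudin of blood vessel lining, was at 0.24 to 1.22 FPKM in MSTN+/- and at most 0.42 FPKM in wild type, and its log2 change of 0.64 (limma adjusted p = 0.0373) missed the threshold when wild-type replicate 1 or 2 was left out (0.0831 and 0.112), when any of MSTN+/- replicates 2, 4, 5, 6 and 7 was (0.0588 to 0.0659), and against wild-type replicate 1 alone (0.0735). Over its alternatives the p of Cldn5 ran up to 0.999, with quantile normalization. Cldn12, the most abundant of the other claudins, was at 10.9 to 13.6 FPKM in MSTN+/-, against 13.2, 8.14 and 9.25 FPKM in wild-type replicates 1, 2 and 3 (log2 change 0.21, limma adjusted p = 0.237), and it was called higher without replicate 1 (0.39, limma adjusted p = 0.00416).

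Of 8 other membrane proteins tested, 3 were higher with all libraries and 0 lower, also 0 at an unadjusted limma p under 0.05. Without wild-type replicate 1, 3 were higher and 4 lower, and against replicate 1 alone 7 were higher and 0 lower (also 0 at an unadjusted p under 0.05). Cxadr, the adhesion molecule that serves as coxsackievirus and adenovirus receptor, had 17.6 ± 2.26 FPKM (SD, n = 7) in MSTN+/- and 5.58 ± 1.37 FPKM (SD, n = 3) in wild type, for a log2 difference of 1.51 (limma adjusted p = 4.597e-05). Jam2 had 32.2 ± 4.38 FPKM in MSTN+/- and 8.46 ± 6.50 FPKM in wild type, for a log2 difference of 2.23 (limma adjusted p = 0.00555) that was 1.32 without wild-type replicate 1. Jam3 had 21.9 ± 2.31 FPKM in MSTN+/- and 9.36 ± 7.94 FPKM in wild type (limma adjusted p = 0.00734), with a log2 change of 1.40 over all libraries and of 0.22 against replicate 1 alone (limma adjusted p = 0.270). In 4 genes of the list the MSTN+/- values lay between wild-type replicate 1 and replicates 2 and 3, as for Cldn4. That order was found in 12.7% of genes tested, and the 4 genes were named after their values were seen. They were Marveld2, the tricellular junction genes Lsr and Ildr1, and the polarity gene Crb3. Lsr was at 3.06 to 10.8 FPKM in MSTN+/-, against 0.52, 24.2 and 26.6 FPKM in wild-type replicates 1, 2 and 3, and Crb3 at 2.71 to 6.62 FPKM against 0, 14.0 and 27.4 FPKM.

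Of 21 cytoplasmic scaffold and polarity genes tested, 4 were higher and 3 lower in MSTN+/- with all libraries, 7 higher and 7 lower without wild-type replicate 1, and 4 higher and 5 lower against replicate 1 alone. The higher genes among those examined included the scaffold genes Magi3, at 6.61 ± 0.55 FPKM in MSTN+/- and 3.88 ± 0.67 FPKM in wild type, Magi2, at 1.46 ± 0.12 and 0.46 ± 0.31 FPKM, and Inadl, which encodes PATJ, at 7.33 ± 0.62 and 3.78 ± 1.37 FPKM. Their log2 changes were 0.65, 0.78 and 0.84 (limma adjusted p = 0.00167, 0.0021 and 0.00283). Magi3 and Magi2 were not called with quantile normalization (0.119 and 0.767), nor Magi2 against wild-type replicate 1 alone (0.0627). Pard6b, a polarity adaptor, had 2.81 ± 0.83 FPKM in MSTN+/- and 10.5 ± 5.92 FPKM in wild type, for a log2 difference of -1.45 (limma adjusted p = 0.00792) that was -0.35 against wild-type replicate 1 alone (limma adjusted p = 0.390). The 2 most abundant, Ybx3, whose protein binds ZO-1, and Amotl2, had log2 changes of -0.13 and -0.34 (limma adjusted p = 0.232 and 0.150). Amotl2 was called lower without wild-type replicate 2 (-0.61, limma adjusted p = 0.0079) and against replicate 1 alone (-0.81, limma adjusted p = 7.639e-04), and Ybx3 with median-of-ratios scaling (-0.35, limma adjusted p = 0.00724). The deposited annotation offers another view of the same class. It places 79 rows, the 9 genes among them, in the apical junction complex. Of the other 53 tested, 15 were higher and 8 lower with all libraries, and 21 higher and 15 lower without wild-type replicate 1.

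**Figure D4:**
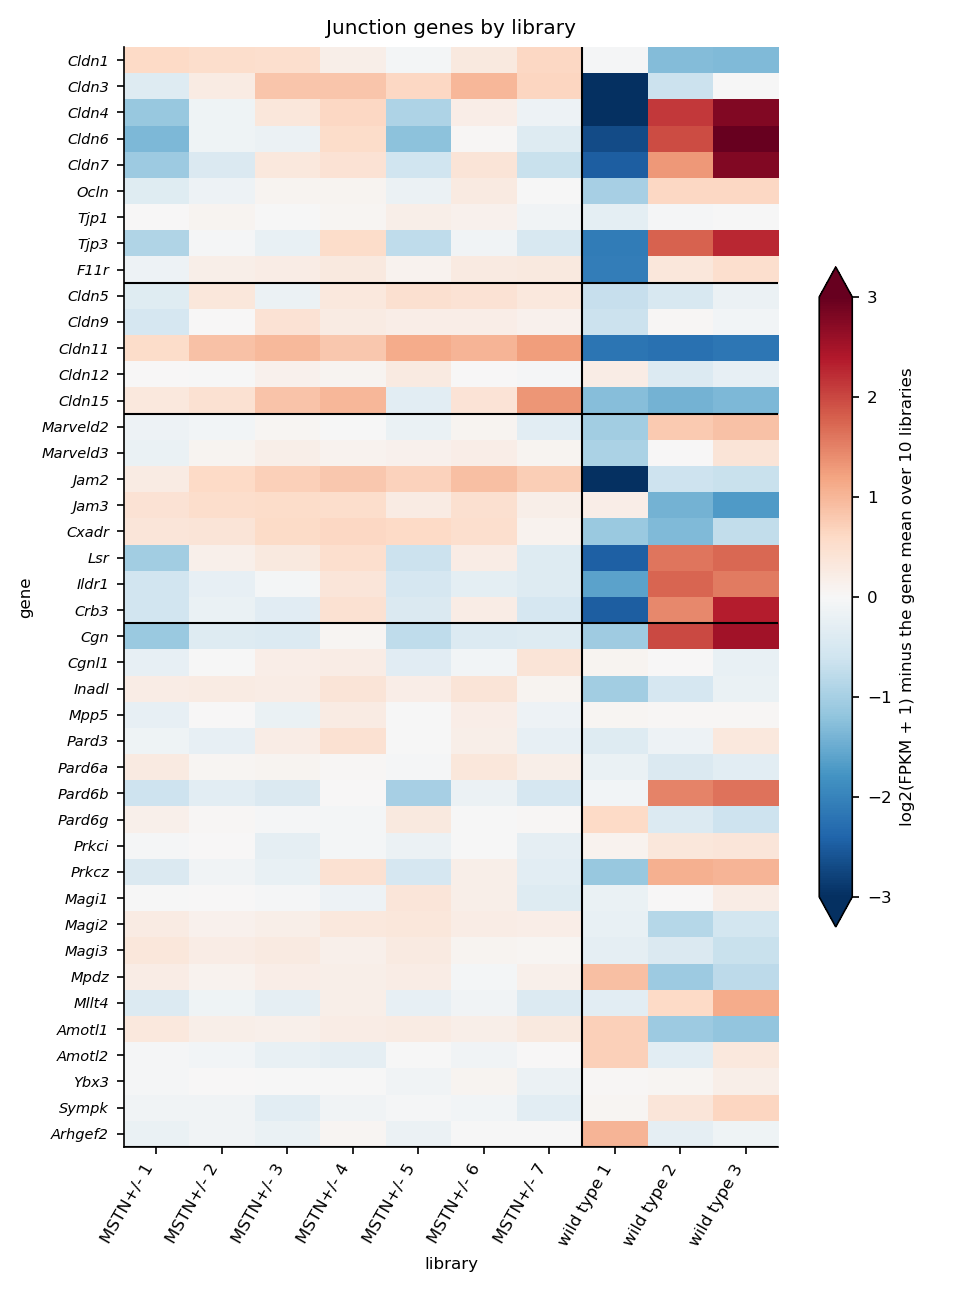
Colour gives log2(FPKM + 1) minus the gene's mean over the 10 libraries, for the 9 genes (top block) and 33 of the 34 further junction genes tested (claudins, membrane proteins, then scaffolds and polarity genes), with libraries along the horizontal axis. Values past -3 or 3 share the end colours. Wild-type replicates 1 and 3 show opposite colours for Cldn4, Cldn6, Cldn7, Lsr and Crb3, and Cldn11 is low in all 3 wild-type libraries.

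Genes that lie side by side in the genome did not always share an order. The deposited table gives no coordinates, and neighbours were read from the cattle assembly ARS-UCD2.0, although the rows are described as mouse genes. CLDN3 and CLDN4 are neighbours there, yet Cldn3 was higher in 6 of 7 MSTN+/- libraries than in wild-type replicate 3 and Cldn4 was lower in 7 of 7. The 2 genes were alike in other respects. Both were higher in 7 of 7 MSTN+/- libraries than in wild-type replicate 1, and both were lowest in replicate 1 within MSTN+/-. CLDN6 neighbours CLDN9. Cldn9 was at 0.31 to 1.53 FPKM in MSTN+/-, against 0.19, 0.91 and 0.77 FPKM in wild-type replicates 1, 2 and 3, without the high values of Cldn6 in the last 2. OCLN neighbours MARVELD2, and for both genes the MSTN+/- values lay between wild-type replicate 1 and replicates 2 and 3. Their order within MSTN+/- differed, with Ocln lowest in replicate 1 and Marveld2 in replicate 7. Both were low, at no more than 1.41 and 1.17 FPKM in MSTN+/-.

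The genes whose pattern was most like each of the 9 were found by Pearson's r of log2(FPKM + 1) over the 10 libraries, which differ mainly between wild-type replicate 1, the other wild-type libraries and the MSTN+/- libraries, so that r is high for many genes. The 2 closest genes were Dlgap3 and Lsr for Cldn4 (r of 0.993 and 0.990), Gprasp2 and Rabggta for Cldn6 (0.992 and 0.990), and Fnbp4 and Kdf1 for Cldn7 (0.986 and 0.978). For Cldn3 they were the keratin gene Krt8 and Ppp2r3c (0.983 and 0.979), and for Cldn1 Igf1, the insulin-like growth factor gene, and Man1c1 (0.993 and 0.993). For Ocln they were Acnat1 and Myh14 (0.975 and 0.972), for Tjp3 Mkrn1 and Mcl1 (0.994 and 0.991), and for F11r Pipox and Laptm5 (0.989 and 0.988). Tjp1 stood closest to Gemin8 and Tmx2, at 0.955 and 0.937. The number of genes with r over 0.95 was 510 for Tjp3, 415 for Cldn1, 264 for Cldn6, 218 for Cldn4 and 1 for Tjp1.

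Markers of other cell types moved across the same libraries, and their part in the results was not tested. The 9 genes summed to 81.9 to 135 FPKM in MSTN+/- and to 39.0, 204 and 332 FPKM in wild-type replicates 1, 2 and 3. Epithelial genes, 18 in number, summed to 252 to 462 FPKM in MSTN+/- and to 77.1, 543 and 764 FPKM in these wild-type libraries. For 10 of them the MSTN+/- values lay between wild-type replicate 1 and replicates 2 and 3, an order found in 12.7% of genes tested. Cdh1 and Epcam, named after their values were seen, were at 11.3 to 28.9 and 12.9 to 31.3 FPKM in MSTN+/-, at 0.06 and 0.31 FPKM in wild-type replicate 1, at 100 and 95.4 FPKM in replicate 2 and at 158 and 152 FPKM in replicate 3. With all libraries 4 of 17 epithelial genes tested were higher, among them the desmosome gene Dsp (log2 change 2.13), the plakoglobin gene Jup (0.73) and the keratin genes Krt8 (2.74) and Krt19 (2.41), with limma adjusted p of 1.664e-04, 0.00435, 0.0119 and 0.00571, and 1 was lower. The counts were 4 higher and 12 lower without wild-type replicate 1, and 14 higher and 0 lower of 16 tested against replicate 1 alone (also 0 at an unadjusted p under 0.05). Without wild-type replicate 1 the change of Krt8 was 1.53, and with library weights it was not called (1.22, limma adjusted p = 0.123). Against replicate 1 alone Krt19 was not called either (0.68, limma adjusted p = 0.168). Spint2, the most abundant protease inhibitor of the list, had a log2 change of 0.40 with all libraries (limma adjusted p = 0.711), -1.09 without wild-type replicate 1 (limma adjusted p = 0.00268) and 3.37 against replicate 1 alone (limma adjusted p = 8.438e-05).

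The sum of pluripotency genes had the same order. The 10 markers together reached 912 to 1553 FPKM in MSTN+/-, against 2.25, 2628 and 2947 FPKM in wild-type replicates 1, 2 and 3. All 10 were below 1 FPKM in wild-type replicate 1. Of the 10, 8 had MSTN+/- values between that library and replicates 2 and 3, an order found in 12.7% of genes tested. None was called with all libraries (0 higher and 0 lower in limma, also for Pou5f1 and Sox2, with log2 changes of 3.54 and 2.75 and adjusted p of 0.0729 and 0.10), and at an unadjusted p under 0.05 1 was higher and 0 lower. Without wild-type replicate 1, 1 was higher and 8 lower, and against replicate 1 alone 8 were higher and 0 lower (also 0 at an unadjusted p under 0.05). Pou5f1, the gene of the pluripotency factor OCT4, was at 633 to 848 FPKM in MSTN+/-, against 0.38, 346 and 533 FPKM in wild-type replicates 1, 2 and 3. It was above all 3 wild-type libraries in 7 of 7 MSTN+/- libraries, an order found in 25.2% of genes tested. Its change was 0.77 without wild-type replicate 1 and 9.06 against that library alone (limma adjusted p = 0.00169 and 2.001e-08), and 5.07 without replicate 3 (limma adjusted p = 0.0299). Sox2 was called against replicate 1 alone (7.51, limma adjusted p = 1.301e-07) and without replicate 2 (3.97, limma adjusted p = 0.0487), and had 0.37 without replicate 1 (limma adjusted p = 0.0798). Within MSTN+/- the sum was highest in replicate 4 and lowest in replicate 1, the libraries with the most and the least Cldn4, Cldn6, Cldn7 and Tjp3. Single markers did not all share this order. Pou5f1 and Sox2, the most abundant of the list, were lowest in replicate 1 and highest in replicate 7. Nanog, Zfp42, Esrrb, Dppa3, Dppa5a, Tdgf1 and Utf1, named after their values were seen, were lowest in replicate 5 and highest in replicate 4. The sum of fibroblast markers ran the other way. For 6 of the 10, every MSTN+/- value lay below wild-type replicate 1 and above replicates 2 and 3. The share of all genes with that order is not given here, so nothing particular to the list is read from this count. The 10 together reached 3059 to 6140 FPKM in MSTN+/-, lowest in replicate 4, against 6662, 414 and 295 FPKM in wild-type replicates 1, 2 and 3. With all libraries 5 were higher and 0 lower (also 0 at an unadjusted p under 0.05), beside 10 and 0 without wild-type replicate 1 and 2 and 4 against replicate 1 alone. Among the 5 were Dcn, Lum, Col3a1 and Col1a2 (log2 changes of 3.64, 2.51, 2.60 and 2.59, limma adjusted p = 2.828e-05, 0.00109, 0.00591 and 0.0267). Dcn and Lum did not share the order of the sum, as every MSTN+/- value lay above all 3 wild-type libraries. Dcn was at 169 to 324 FPKM in MSTN+/-, against 24.3, 33.0 and 8.27 FPKM in wild-type replicates 1, 2 and 3. Col1a1 had 2.39 (limma adjusted p = 0.0574), and it was called without wild-type replicate 1 (4.08, limma adjusted p = 8.201e-07). The change of Col1a2 was 4.09 without wild-type replicate 1, and it missed the threshold without replicate 2 (1.98, limma adjusted p = 0.131) and without replicate 3 (1.71, limma adjusted p = 0.143). Against replicate 1 alone Col3a1 and Col1a2 were not called (0.52 and -0.40, limma adjusted p = 0.242 and 0.297).

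The Snail, Zeb and Twist transcription factors are known to repress claudin and occludin genes. Their summed level ran against that of the 9 genes, though not against each of them, and a link between the 2 was not tested. Cldn1, like the repressor sum, was higher in wild-type replicate 1 than in replicates 2 and 3, and Tjp1 was even. Cldn3, also like the repressor sum, was higher in 7 of 7 MSTN+/- libraries than in wild-type replicate 2. It was higher in 6 of 7 than in wild-type replicate 3. The 6 repressors summed to 78.6 to 151 FPKM in MSTN+/-, lowest in replicate 4, and to 212, 38.3 and 17.5 FPKM in wild-type replicates 1, 2 and 3. All 6 were higher in MSTN+/- without wild-type replicate 1, and against replicate 1 alone 4 were lower and 0 higher, also 0 at an unadjusted p under 0.05. With all libraries Zeb2 and Twist1 were higher, at log2 changes of 1.32 and 1.84 (limma adjusted p = 0.0344 and 0.0392), and Twist2 had 0.60 (limma adjusted p = 0.490), with calls in opposite directions without wild-type replicate 1 (1.60, limma adjusted p = 0.0144) and against it alone (-1.41, limma adjusted p = 0.00873). The changes of Zeb2 and Twist1 were 2.08 and 2.97 without wild-type replicate 1. Neither was called without replicate 2 (1.11 and 1.21, limma adjusted p = 0.138 and 0.198), without replicate 3 (0.77 and 1.35, limma adjusted p = 0.181 for each) or when any of MSTN+/- replicates 1, 2, 5 and 6 was left out (0.0550 to 0.0673), and for Twist1 also without replicate 3 or 7 of MSTN+/- (0.0559 and 0.0614). Median-of-ratios scaling also lost both calls (0.071 and 0.07), as did dropping the low-value filter (0.05 and 0.0551), and Zeb2 was lost with quantile normalization (0.107) and Twist1 with TPM rescaling (0.05). Twist1 was at 29.6 to 76.7 FPKM in MSTN+/-, against 58.7, 4.18 and 5.35 FPKM in wild-type replicates 1, 2 and 3.

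Markers of endothelial cells and keratinocytes were compared as well, and their part in the results was not tested. The 8 endothelial markers summed to 21.1 to 30.6 FPKM in MSTN+/- and to 3.30, 31.9 and 29.1 FPKM in wild-type replicates 1, 2 and 3. In MSTN+/- most of this was the receptor gene Tek, at 15.8 to 23.6 FPKM (log2 change 3.24, limma adjusted p = 1.214e-06). In wild-type replicates 2 and 3 most of it was Pecam1, at 26.4 and 24.3 FPKM. The log2 change of Pecam1 was -1.84 with all libraries (limma adjusted p = 0.137). Without wild-type replicate 1 Pecam1 was called lower (-3.39, limma adjusted p = 3.565e-04). Quantile normalization and library weights also called it lower (limma adjusted p = 0.0471 and 0.0173). Cdh5, the defining cadherin of vessel lining, was at 0.05 to 3.52 FPKM in MSTN+/- and at most 0.12 FPKM in wild type. It was not called with all libraries (limma adjusted p = 0.0833). Kdr and Vwf were at 0.09 to 0.32 and 0.06 to 0.36 FPKM in MSTN+/-. In wild-type replicates 1, 2 and 3 Kdr was at 2.16, 0.11 and 0.05 FPKM, and Vwf at 0.02, 1.28 and 1.27 FPKM. Cdh5, Kdr and Vwf were named after their values were seen. Of 7 keratinocyte genes only 3 were tested, Krt14, Krt5 and Trp63, and these were higher in MSTN+/- with all libraries. The 7 summed to 11.1 to 45.5 FPKM in MSTN+/- and to 1.04, 1.34 and 0.86 FPKM in wild-type replicates 1, 2 and 3. Krt14 was at 7.42 to 24.2 FPKM in MSTN+/- and at a listed 0 in each of the 3 wild-type libraries. The largest sum, in MSTN+/- replicate 3, was mostly Krt14 and Krt5, at 24.2 and 17.1 FPKM. Krt10, Ivl and Lor peaked under 1 FPKM, with no separation of the groups. Krt1 passed that level only in MSTN+/- replicate 3, at 1.29 FPKM. Krt5 and Trp63 were also higher in MSTN+/- (log2 changes of 2.05 and 0.89, limma adjusted p = 0.0131 and 0.00108). Of 6 muscle markers tested, Myh2, Myh1 and Tnni2 were higher (log2 changes of 3.52, 1.82 and 0.83, limma adjusted p = 4.418e-06, 0.00136 and 0.0228), and Acta1 had -0.65 (limma adjusted p = 0.319), called only against wild-type replicate 1 alone among its alternatives (-2.38, limma adjusted p = 8.798e-04). Krt5 and Tnni2 were not called against wild-type replicate 1 alone (limma adjusted p = 0.0891 and 0.587), nor Tnni2 without replicate 2 or without replicate 3 (0.108 for each). Quantile normalization lost the calls of Tnni2 and Trp63 (0.366 and 0.33), and library weights those of Tnni2 and Krt5 (0.1 and 0.151). Of the 6 muscle markers, 3 were higher and 2 lower without wild-type replicate 1. The lower ones, named after their values were seen, were Mb and Actn3 (-0.99 and -0.48, limma adjusted p = 0.00302 and 0.013).

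**Figure D5:**
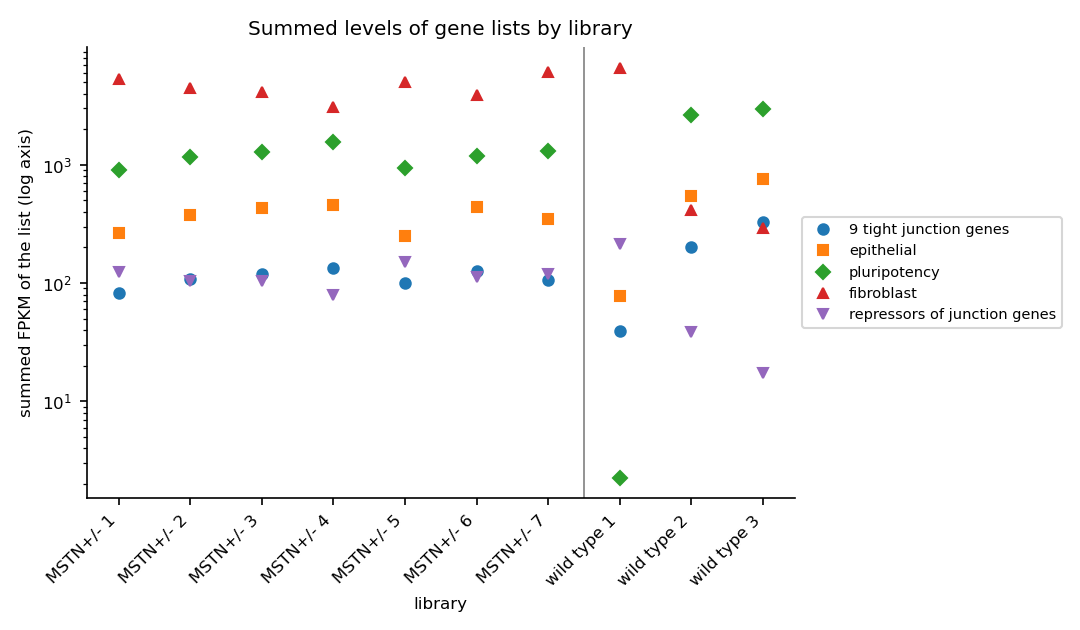
Summed FPKM (vertical axis, log scale) of the 9 tight junction genes and of 4 gene lists in each library (horizontal axis). The tight junction, epithelial and pluripotency sums are lowest in wild-type replicate 1 and highest in replicates 2 and 3, and the fibroblast sum is 3059 to 6140 FPKM in MSTN+/-, against 414 and 295 FPKM in those 2 wild-type libraries.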

How the data were processed

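The deposited table gives each gene in each of the 10 libraries an FPKM value that the authors computed, as its file headers state, to 2 decimals. No aligner, counter or genome build is named in the material used. Columns were tied to libraries by title and groups taken from the genotype label, with replicates numbered in record order.

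Because FPKM is no count, no count model was used. limma 3.58.1 (R 4.3.3), with an intensity trend and 8 residual degrees of freedom, was run on log2(FPKM + 1), which understates changes of low genes. It covered 14047 genes reaching 1 FPKM in 3 or more libraries, among them all 9 genes, so no separate permutation test of low genes was needed. Benjamini-Hochberg adjustment spanned all genes tested, and the threshold was 0.05.

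The 9 genes and the gene lists were chosen with earlier results of these data known. Genes named from a list were up to 4 past the threshold by smallest p and the 2 most abundant, with others marked. Relative depth was the most common ratio to MSTN+/- replicate 1 among low genes of 1 transcript, searched between 0.732 and 1.37. Alternatives were TPM rescaling, median-of-ratios scaling, quantile normalization, library weights, no low-value filter, a pseudocount of 0.1, each library left out, and wild-type replicate 1 as the lone wild-type library. Simulated data were used to test the procedure. Values of 1 further junction gene, counted in its list, are not reported here. Figures were drawn with matplotlib 3.10.9.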

Additional observations from a re-analysis of the deposited data

Results flagged for a closer look

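Of 46 named genes, 2 had 1 of the 7 MSTN+/- libraries far from the others on the log2 scale, and chance marks about 1 in 20 groups. Neither was among the 9 tight junction genes. The receptor gene Tek was lowest in MSTN+/- replicate 7, at 15.8 FPKM, and the keratin gene Krt5 was highest in MSTN+/- replicate 3, at 17.1 FPKM.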

How the results depend on the processing

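No paired analysis was possible because the labels give no replicate numbers shared between the groups. Of the 9 genes, 2 were called higher with all libraries, 1 with quantile normalization, a pseudocount of 0.1 or library weights, 8 with wild-type replicate 1 as the lone wild-type library, and 2 in every fit that left out 1 library. The count called lower, 0 with all libraries, was 4 with library weights and 0 to 5 when 1 library was left out, with 5 without wild-type replicate 1. Signs turned against wild-type replicate 1 alone for Cldn4 (3.50), Cldn6 (2.31), Cldn7 (2.25), Ocln (0.95) and Tjp3 (1.83), and among other named genes for Cldn12 (-0.16), Zeb2 (-0.20), Twist1 (-0.41), Twist2 (-1.41), Pecam1 (1.24), Col1a2 (-0.40) and Col1a1 (-0.98). When 1 library was left out, ranges that crossed 0 were -2.62 to 0.60 for Cldn4 (lowest without wild-type replicate 1, and 0.28 without replicate 2), -2.28 to 0.35 for Cldn7, -0.66 to 0.15 for Ocln, -0.24 to 1.04 for F11r, -1.09 to 1.23 for Spint2, -0.51 to 1.60 for Twist2 and -1.14 to 0.22 for Acta1, each with 1 end without wild-type replicate 1 and the other without replicate 3 (for Ocln also without replicate 2). Other settings turned Cldn7 (0.04) and Ocln (0.40) with a pseudocount of 0.1, Tjp1 (-0.05) with median-of-ratios scaling, Cldn12 (-0.02) with quantile normalization, and F11r (-0.21), Spint2 (-1.08) and Acta1 (0.37) with library weights. The cause was not tested. Of the other junction genes, 10 were higher, or 6 with quantile normalization and 9 to 13 when 1 library was left out. The number lower was 3, and 6 with median-of-ratios scaling, 7 with quantile normalization, 10 with library weights, 5 against wild-type replicate 1 alone and 1 to 11 when 1 library was left out (11 without wild-type replicate 1, 1 without replicate 3). Over all genes 4468 were higher and 1800 lower. The higher count was 2874 with quantile normalization and 3445 to 5898 when 1 library was left out. The lower count was 3230 with median-of-ratios scaling, 3851 with quantile normalization, 3368 with library weights and 791 to 4449 when 1 library was left out. Depth in fragments is unknown, so a listing at 0 sets no limit.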
